A study of Mus musculus with 6 samples.

Results

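The genes described here are 44 cell cycle and DNA replication genes, taken by symbol from a table of read counts for obstructed mouse kidneys. All 44 had a row among the 34714 rows of the table, and all passed the filter on low counts, which left 18927 genes for testing. They were divided by the phase in which each is known to act or peak, giving 16 genes of the start of S phase and of DNA replication (called S-phase genes here) and 28 of G2 and mitosis (mitotic genes). The libraries come from kidneys of male mice whose left ureter was double ligated at 8 weeks of age (unilateral ureteral obstruction), collected 10 days after surgery. One group of 3 was wild type (C57BL/6J). The other group of 3 was miR-92b-/-, a purchased strain (C57BL/6JGpt) in which the microRNA gene Mir92b is knocked out in the whole animal and not in 1 cell type alone. Every kidney compared was ligated, although the protocol in the labels also calls ligated kidneys nonfibrotic controls, and sham-operated kidneys were not analysed here. Library totals ran from 38738204 to 51932509 counts. Nothing in the labels ties a replicate to an animal of its own, so p-values measure the spread between these samples, which may be technical. The table has 0 microRNA rows, so the deletion itself could not be checked. Because these are whole kidneys, more cycling cells and more cell cycle RNA per cycling cell cannot be told apart.

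Cells that leave quiescence switch on their cell cycle genes in 2 waves. At the start of S phase, cyclin E with its kinase inactivates the retinoblastoma protein and frees E2F factors, which switch on the MCM helicase, the licensing factor Cdt1 and the enzymes that supply nucleotides. In G2, B-Myb (Mybl2) and FoxM1, bound to the MuvB complex, switch on Cdk1, the B cyclins, the mitotic kinases and the spindle genes through a promoter element called the cell cycle genes homology region (CHR). In a healthy adult kidney few cells divide, and after ureteral obstruction tubule, interstitial, endothelial and immune cells can re-enter the cycle.

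The microRNA of the deleted gene shares its seed with a microRNA hosted by a gene of this group, which lies on another chromosome. Mir92b gives rise to miR-92b-3p (chr3:89227126-89227147, minus strand, GRCm38.p6), and the S-phase gene Mcm7, a subunit of the replicative helicase, hosts a microRNA with the same seed. The hairpins of Mir25, Mir93 and Mir106b lie inside intron 13 of the transcript Mcm7-201 (GENCODE M21) and overlap no exon of it. The mature sequences (RefSeq) are given here to show the shared part, with the seed, bases 2 to 8, in capitals.
miR-92b-3p: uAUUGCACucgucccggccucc
miR-25-3p: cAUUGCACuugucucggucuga
Mcm7 messenger RNA was at 53.3, 48.2 and 54.1 CPM (counts scaled to library size and composition) in wild-type replicates 1, 2 and 3 and at 50.6, 54.6 and 72.8 CPM in knockout replicates 1, 2 and 3. The groups overlapped, and the log2 fold change (knockout over wild type) was 0.19 ± 0.16 (SE, n = 3 per group). The count of the host messenger does not measure miR-25 itself.

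Promoter letters differed in share between the S-phase and the mitotic genes. Whether they bear on the levels across libraries was not tested. RefSeq promoter windows (GRCm38.p6, 250 bases before to 50 after the start) were found for 36 of the 44 genes. The search, on both strands, covered 3 motifs: the E2F motif (TTTGGCGC or TTTCGCGC), the CHR (TTTGAA or TTCGAA) and the CCAAT box (CCAAT). Matches of different motifs may overlap, and forward and reverse E2F matches can share letters. A CHR stood in 19 of 23 mitotic windows, in 3 of 13 S-phase windows and in 21.7% of all 27025 genes with a window. The 4 mitotic genes with a window but no CHR were Birc5, Ccnb1, Cenpe and Nusap1. In them knockout replicate 3 was at 3.51, 3.30, 2.52 and 2.08 times the mean of the other knockout libraries. The median over all mitotic genes was 2.62. An E2F motif stood in 5 of 13 S-phase windows, in 1 of 23 mitotic windows (Cdk1) and in 0.929% of all genes. The CCAAT box was found in 20 of 23 mitotic windows, in 8 of 13 S-phase windows and in 41.1% of all genes, and a CHR together with a CCAAT box in 18 of 23, 3 of 13 and 8.61%. The longer lists of other mitotic and other S-phase genes gave 35 of 49 and 9 of 37 windows with a CHR, and 3 of 49 and 9 of 37 with an E2F motif. A match is a string of letters, not a measured binding site.

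The last 160 bases before the start are printed for 4 mitotic genes that have a CHR there and for 2 helicase genes with an E2F motif, 5′ to 3′ on the strand of the gene, with all 3 motifs in capitals in either orientation. In Mcm6 and Mcm5 a forward and a reverse E2F match overlap and read as one longer capital run.
Ube2c: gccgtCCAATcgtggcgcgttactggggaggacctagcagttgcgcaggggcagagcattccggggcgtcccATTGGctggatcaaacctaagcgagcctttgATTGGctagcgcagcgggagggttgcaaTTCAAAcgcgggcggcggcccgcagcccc
Cdk1: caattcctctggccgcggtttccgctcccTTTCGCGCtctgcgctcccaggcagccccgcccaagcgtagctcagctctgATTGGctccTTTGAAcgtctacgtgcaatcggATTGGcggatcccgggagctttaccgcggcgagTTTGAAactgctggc
Cdc20: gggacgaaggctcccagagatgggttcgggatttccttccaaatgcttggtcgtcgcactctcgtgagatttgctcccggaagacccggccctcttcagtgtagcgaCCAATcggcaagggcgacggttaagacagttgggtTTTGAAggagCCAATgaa
Kif11: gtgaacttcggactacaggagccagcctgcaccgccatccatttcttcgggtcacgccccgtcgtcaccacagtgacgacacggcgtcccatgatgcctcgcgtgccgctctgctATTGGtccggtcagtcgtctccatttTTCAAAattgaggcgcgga
Mcm6: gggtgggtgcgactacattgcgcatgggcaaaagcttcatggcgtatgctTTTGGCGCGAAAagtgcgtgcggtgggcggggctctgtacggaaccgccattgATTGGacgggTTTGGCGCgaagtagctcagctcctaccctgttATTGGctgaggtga
Mcm5: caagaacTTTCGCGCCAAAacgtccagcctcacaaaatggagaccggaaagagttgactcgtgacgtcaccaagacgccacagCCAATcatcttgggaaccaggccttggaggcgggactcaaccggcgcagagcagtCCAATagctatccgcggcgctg
These stretches lie at chr2:164769769-164769928, plus strand (Ube2c), chr10:69352913-69353072, minus strand (Cdk1), chr4:118437344-118437503, minus strand (Cdc20), chr19:37376222-37376381, plus strand (Kif11), chr1:128359706-128359865, minus strand (Mcm6) and chr8:75109349-75109508, plus strand (Mcm5). Ube2c has its CHR in the reverse orientation at position -29 from the start, with CCAAT boxes further upstream. Cdk1 has a CHR at -71 and at -15 and its E2F motif at -131. Mcm6 and Mcm5 have no CHR in the window.

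The comparison of genotypes asks whether cell cycle genes of the obstructed kidney differed between the miR-92b knockout and the wild type. The strain labels of the groups differ too, so the deletion and a difference of strain cannot be told apart. None of the 44 genes passed the test: edgeR's quasi-likelihood test with Benjamini-Hochberg adjustment over all genes called 0 of 16 S-phase and 0 of 28 mitotic genes at an adjusted p under 0.05, as it called 0% of all genes tested. At an unadjusted p under 0.05 there were 0 of 44, against 7.90% of all genes tested (1495 genes). The DESeq2 Wald test called 0 of 44, against 0.334% of all genes, and limma-voom 0 of 44, against 0.0159%; at an unadjusted p under 0.05 both had 1 of the 44, Ccne2, against 8.39% of all genes with DESeq2 and 14.0% with limma-voom. The median log2 fold change was 0.080 over the S-phase genes, with 11 of 16 above 0, and 0.17 over the mitotic genes, with 20 of 28 above 0. The median of all genes tested was -0.018, with 47.7% above 0. Standard errors were wide, at a median of 0.42 on the log2 scale for mitotic and 0.26 for S-phase genes, so these fold changes do not show that the genotypes were alike.

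The groups overlapped for 43 of the 44 genes. The exception was Ccne2, which encodes one of the 2 E-type cyclins, on chromosome 4 at 11190433 to 11204779. It was at 3.36, 2.31 and 2.62 CPM in the wild type and at 3.42, 3.93 and 6.26 CPM in the knockout, so that the lowest knockout library lay just above the highest wild-type library and knockout replicate 3 well above the rest. That is 1 gene with the knockout above, or 2.27% of the 44, where 8.95% of all genes tested had non-overlapping groups in that direction, and 0 of 44 with the knockout below, against 7.20%. Its log2 fold change was 0.72 ± 0.32 (SE, n = 3 per group), with an unadjusted p of 0.0537 and an adjusted p of 0.627 (edgeR) that ranged from 0.299 with limma-voom to 0.971 without knockout replicate 2. Its unadjusted p was 0.0271 with DESeq2 and 0.0149 with limma-voom. Ccne2 was also the least counted of the 44 genes, with 143, 114 and 123 wild-type and 150, 183 and 315 knockout counts.

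The wider differences lay between libraries of the same genotype. Knockout replicate 3 had the highest level of the 6 libraries for 42 of the 44 genes, where 18.8% of all genes tested were highest there. Wild-type replicate 1 was the highest of its own group for 36, against 38.4% of all genes tested. Knockout replicate 3 was the highest of its own group for all 44 genes, against 38.9% of all genes tested. Both libraries were the highest of their groups for 27 of 28 mitotic and 9 of 16 S-phase genes. That made 36 in all, against 20.0% of all genes tested. Summed over the 28 mitotic genes, the level was 858, 458 and 577 CPM in wild-type replicates 1 to 3 and 445, 466 and 1154 CPM in knockout replicates 1 to 3. The wild-type sum was 631 ± 205 CPM and the knockout sum 688 ± 403 CPM (SD, n = 3). The S-phase sum was 468, 386 and 473 CPM in the wild type and 367, 409 and 628 CPM in the knockout. The mitotic sum therefore spanned 2.59-fold and the S-phase sum 1.71-fold over the 6 libraries. The sum over 28 mitotic genes was 1.83 times the sum over 16 S-phase genes in wild-type replicate 1 and 1.84 times in knockout replicate 3. It was 1.14 to 1.22 times in the other 4 libraries. The lists differ in length, so this ratio does not compare levels per gene. Mean log2 CPM per gene was higher for mitotic genes in wild-type replicate 1 (4.68 against 4.38) and knockout replicate 3 (5.16 against 4.82). In the other 4 libraries it was lower for mitotic genes. These 2 libraries were singled out after their values were seen, and what follows describes them without a test.

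**Figure D1:**
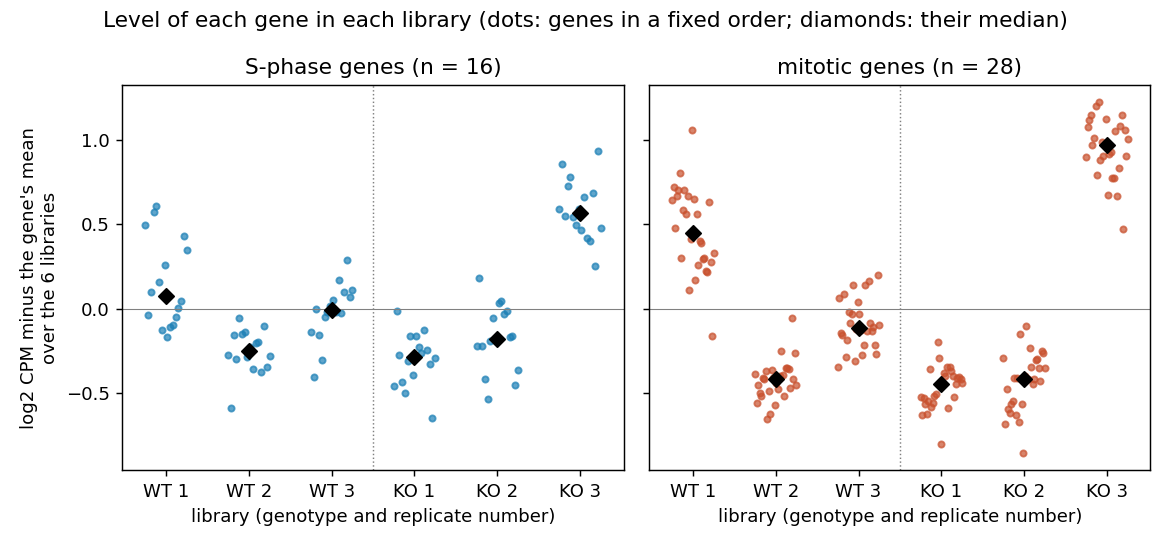
Log2 CPM of each gene minus its mean over the 6 libraries (vertical axis) in each library (horizontal axis; WT, wild type; KO, knockout) for the 16 S-phase and the 28 mitotic genes. Each dot is a gene and each diamond the median of the group of genes; knockout replicate 3 and, among mitotic genes, wild-type replicate 1 stand above the others of their genotype.

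Among the S-phase genes, the E-type cyclins and the transcription factors were higher in both of these libraries: both cyclins, and all 4 transcription factors with Foxm1 counted in, had wild-type replicate 1 and knockout replicate 3 highest of their groups. Ccne1, the other E-type cyclin, was at 7.43, 4.37 and 4.81 CPM in the wild type and at 3.85, 4.53 and 7.94 CPM in the knockout (-0.023 ± 0.35, log2 fold change and SE). E2f1, an activator of the S-phase genes, was at 11.1, 9.31 and 10.3 CPM and 8.58, 8.89 and 15.2 CPM (0.086 ± 0.26). E2f8, an E2F family repressor, was at 9.95, 5.44 and 6.02 CPM and 4.95, 5.02 and 11.1 CPM (-0.023 ± 0.39). In Ccne1 and E2f8 wild-type replicate 1 and knockout replicate 3 stood together above the other 4 libraries, and in E2f1 knockout replicate 3 stood alone. Mybl2, which encodes B-Myb, was at 12.6, 7.97 and 6.72 CPM in the wild type and 5.86, 5.73 and 14.2 CPM in the knockout (-0.082 ± 0.41), again with these 2 libraries highest.

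The licensing and helicase genes had the lowest median excess of knockout replicate 3 of any role, at 1.60 times the mean of the other knockout libraries. Mcm2, Mcm3, Mcm4, Mcm5, Mcm6 and Mcm7 encode the ring that opens DNA ahead of the replication fork, Cdt1 loads it and Gins2 belongs to the GINS complex that activates it. All 8 had a fold change above 0, from 0.056 for Mcm3 to 0.36 for Mcm5. Without knockout replicate 3, 5 of the 8 were below 0, with Mcm2 at -0.013, Mcm3 at -0.30, Mcm6 at -0.11, Cdt1 at -0.24 and Gins2 at -0.13, and Mcm5 was at 0.071. The smallest unadjusted p among them was 0.165, for Mcm5 (edgeR adjusted p = 0.661). Mcm2 was at 34.4, 34.0 and 37.0 CPM in the wild type and at 33.5, 36.1 and 52.7 CPM in the knockout. Mcm5 was at 21.2, 17.8 and 22.5 CPM and 19.5, 23.6 and 36.1 CPM. In both genes knockout replicate 3 was highest, and the other 5 libraries lay close together. Mcm6 was also highest in knockout replicate 3, at 63.7, 59.0 and 76.5 CPM and 56.7, 66.5 and 90.8 CPM, with wild-type replicate 3 second. Mcm3 and Mcm4 ranged from 27.3 to 53.8 CPM and from 29.6 to 47.7 CPM, Cdt1 from 10.0 to 18.1 CPM and Gins2 from 7.28 to 15.2 CPM. Knockout replicate 3 was at 1.38 to 1.86 times the mean of the other knockout libraries over these 8 genes, and wild-type replicate 1 was 0.940 to 1.30 times the mean of the other wild-type libraries.

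The remaining S-phase genes differed from one another. Pcna, the sliding clamp that holds DNA polymerase on its template, was at 91.2, 82.1 and 108 CPM in the wild type and at 70.5, 78.8 and 105 CPM in the knockout (-0.14 ± 0.18). It was the only S-phase gene whose highest library was wild-type replicate 3, and it was the highest of the 44 genes per length, at 58.8 CPM per kilobase of the longest transcript, averaged over the 6 libraries. Mcm7 and Mcm6 came next on that scale at 18.8 and 15.8, and Ccne2 was the lowest at 1.21. Rrm2, the regulated subunit of ribonucleotide reductase, was at 38.3, 22.3 and 29.8 CPM in the wild type and 18.1, 20.8 and 54.3 CPM in the knockout (0.045 ± 0.42). It had the widest within-group spread of the S-phase genes with knockout replicate 3 at 2.79 times the mean of the other knockout libraries. Tyms, thymidylate synthase, was at 24.2, 15.6 and 20.5 CPM and 15.5, 14.8 and 26.4 CPM (-0.088 ± 0.27).

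Among the mitotic genes, Cdk1 and its cyclins had the highest median excess of knockout replicate 3 of any role, at 3.18 times the mean of the other knockout libraries. Cdk1, the kinase that drives entry into mitosis, was at 37.1, 15.3 and 23.6 CPM in the wild type and at 14.6, 14.1 and 47.6 CPM in the knockout. The group means were 25.4 ± 11.0 and 25.4 ± 19.2 CPM (SD, n = 3), a log2 fold change of 0.0054 ± 0.53 (SE). The means were level, with 1 high library in each group, and without both of these libraries the fold change was -0.44. Ccnb1, one of its B-type partners, was at 18.6, 8.31 and 10.6 CPM and 7.96, 7.77 and 26.0 CPM (0.16 ± 0.52). Ccnb2, the other, was at 29.4, 12.6 and 19.2 CPM and 11.7, 11.8 and 35.4 CPM (-0.055 ± 0.49). In both cyclins knockout replicate 3 was about as far above its group as in Cdk1, at 3.30 and 3.01 times the mean of the other knockout libraries, against 3.32 for Cdk1. Ccna2, cyclin A2, which acts in S phase and G2, was at 49.1, 25.8 and 31.8 CPM and 24.4, 25.4 and 76.3 CPM (0.24 ± 0.47). Foxm1, the transcription factor of this wave, was at 30.2, 14.8 and 15.3 CPM and 13.5, 15.8 and 36.1 CPM (0.12 ± 0.43), with wild-type replicate 1 about 2.01 times the mean of the other wild-type libraries.

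The mitotic kinases with the passenger complex, and the genes of the checkpoint and of mitotic exit, came next, at medians of 2.96 and 2.80 times. Plk1, a kinase of spindle assembly, was at 23.0, 9.91 and 10.8 CPM in the wild type and 9.03, 8.91 and 26.5 CPM in the knockout (0.028 ± 0.50). Aurka, the spindle pole Aurora kinase, ranged from 6.46 CPM in knockout replicate 2 to 21.7 CPM in knockout replicate 3 (0.40 ± 0.47). The chromosomal passenger complex corrects faulty attachments of chromosomes, and 3 of its members were measured: Aurkb, its kinase (-0.047 ± 0.40), Cdca8, which encodes borealin (0.056 ± 0.42), and Birc5, survivin. Birc5 was at 27.2, 10.6 and 15.7 CPM in the wild type and 11.4, 10.8 and 38.9 CPM in the knockout (0.19 ± 0.55). The checkpoint kinase gene Bub1 stood at -0.011 ± 0.50 and Bub1b, which encodes BubR1, at 0.45 ± 0.32, the highest fold change of the mitotic genes (edgeR adjusted p = 0.674). Bub1b was at 15.9, 11.4 and 11.8 CPM and 12.8, 13.3 and 27.5 CPM, and its fold change came down to -0.0012 without knockout replicate 3. Cdc20, which activates the anaphase-promoting complex, was at 0.20 ± 0.42. Ube2c, the ubiquitin-conjugating enzyme of that complex, had the widest spread of all 44 genes, at 34.9, 11.3 and 17.2 CPM in the wild type and 9.65, 9.30 and 36.4 CPM in the knockout (-0.19 ± 0.62). Its level in knockout replicate 3 was 3.85 times the mean of the other knockout libraries, and in wild-type replicate 1 it was 2.44 times the mean of the other wild-type libraries.

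Chromosome, spindle and cytokinesis genes had lower medians of the same excess, at 2.18, 2.31 and 2.62 times. Mki67, the proliferation marker Ki-67 that coats mitotic chromosomes, was at 154, 72.3 and 96.0 CPM in the wild type and at 71.8, 74.5 and 156 CPM in the knockout (-0.089 ± 0.37), so the high libraries of both genotypes were level. Top2a, the topoisomerase that untangles sister chromatids, was at 59.2, 37.8 and 48.1 CPM and 40.3, 49.0 and 99.1 CPM (0.38 ± 0.34). Of the kinetochore and spindle genes, Cenpe, Cenpf, Tpx2 and Hmmr stood between 0.16 and 0.30, and Kif11, the motor that pushes spindle poles apart, and Nusap1, a microtubule bundler, at -0.0084 and -0.008. For cytokinesis, Prc1 bundles the central spindle, Kif20a and Kif23 are its motors, Anln is a scaffold of the contractile ring and Ect2 and Racgap1 switch on its RhoA. Kif20a, Anln, Prc1, Racgap1 and Ect2 stood at 0.41, 0.40, 0.34, 0.27 and 0.26. Kif23 had the lowest fold change of the 44 genes, at -0.23 ± 0.31, with 45.6, 28.4 and 25.4 CPM in the wild type and 22.1, 21.9 and 40.8 CPM in the knockout, and was the only mitotic gene highest in wild-type replicate 1. Ect2 was the only mitotic gene whose highest wild-type library was replicate 3, at 14.7, 13.8 and 18.9 CPM.

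The spread between libraries of one genotype was wider for the mitotic than for the S-phase genes. The within-group SD of log2 CPM had a median of 0.65 over the mitotic genes, ranging from 0.48 to 0.98. Over the S-phase genes the median was 0.36, ranging from 0.21 for Mcm7 to 0.67 for Rrm2. The 11113 genes tested whose mean level lay within the range of the 44 genes had a median of 0.22, so the S-phase genes also lay above it. Knockout replicate 3 stood at a median of 2.62 times the mean of the other knockout libraries over mitotic genes and 1.73 times over S-phase genes, against 1.01 over genes at these levels. For wild-type replicate 1 the medians were 1.66, 1.16 and 0.975. Knockout replicates 1 and 2 were near each other, with a median ratio of 1.04 over mitotic genes. These are descriptions, and the difference between the phases was not tested.

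**Figure D2:**
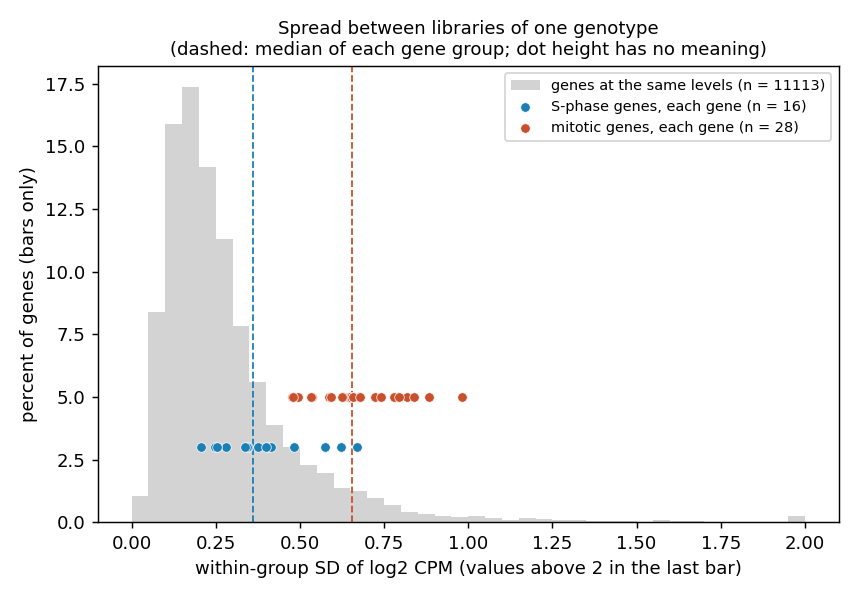
Within-group standard deviation of log2 CPM (horizontal axis) for genes tested at the same levels (grey bars, percent of genes) and for each S-phase and mitotic gene (dots, whose height carries no value). The dashed lines mark medians of 0.36 for the S-phase and 0.65 for the mitotic genes.

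The direction of the genotype difference depended on which libraries were in the fit. Knockout replicate 3 was highest of its group for all 44 genes, so leaving it out lowers their fold changes by construction. Leaving out wild-type replicate 1, highest of its group for 27 of 28 mitotic genes, raises theirs. The counts for these fits therefore repeat how the 2 libraries were singled out. The median of all genes was -0.023 without knockout replicate 3 and -0.0095 without wild-type replicate 1. Without knockout replicate 3 the mitotic median was -0.45 with 0 of 28 genes above 0, and the S-phase median -0.24 with 4 of 16; 3 of the 44 genes then had an unadjusted p under 0.05, all lower in the knockout, against 4.99% of all genes in that fit, and 0 were called (edgeR, smallest adjusted p = 0.796). Without wild-type replicate 1 the medians were 0.48, with 28 of 28 above 0, and 0.21, with 15 of 16. Without wild-type replicate 2 the mitotic median also came below 0, at -0.037 with 13 of 28 above 0, and the S-phase median was 0.018 with 9 of 16. Leaving out wild-type replicate 1 and knockout replicate 3 together, an alternative chosen after seeing the data, gave -0.20 with 3 of 28 and -0.14 with 4 of 16, and again called 0 of the 44 genes (edgeR; 0 at an unadjusted p under 0.05, against 4.46% of all genes in that fit). Of single genes, Ube2c ranged from -1.16 without knockout replicate 3 to 0.37 without wild-type replicate 1, and Cdk1 from -0.82 to 0.39. Ccne2 kept its sign without either of these libraries, at 0.41 and 0.88.

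**Figure D3:**
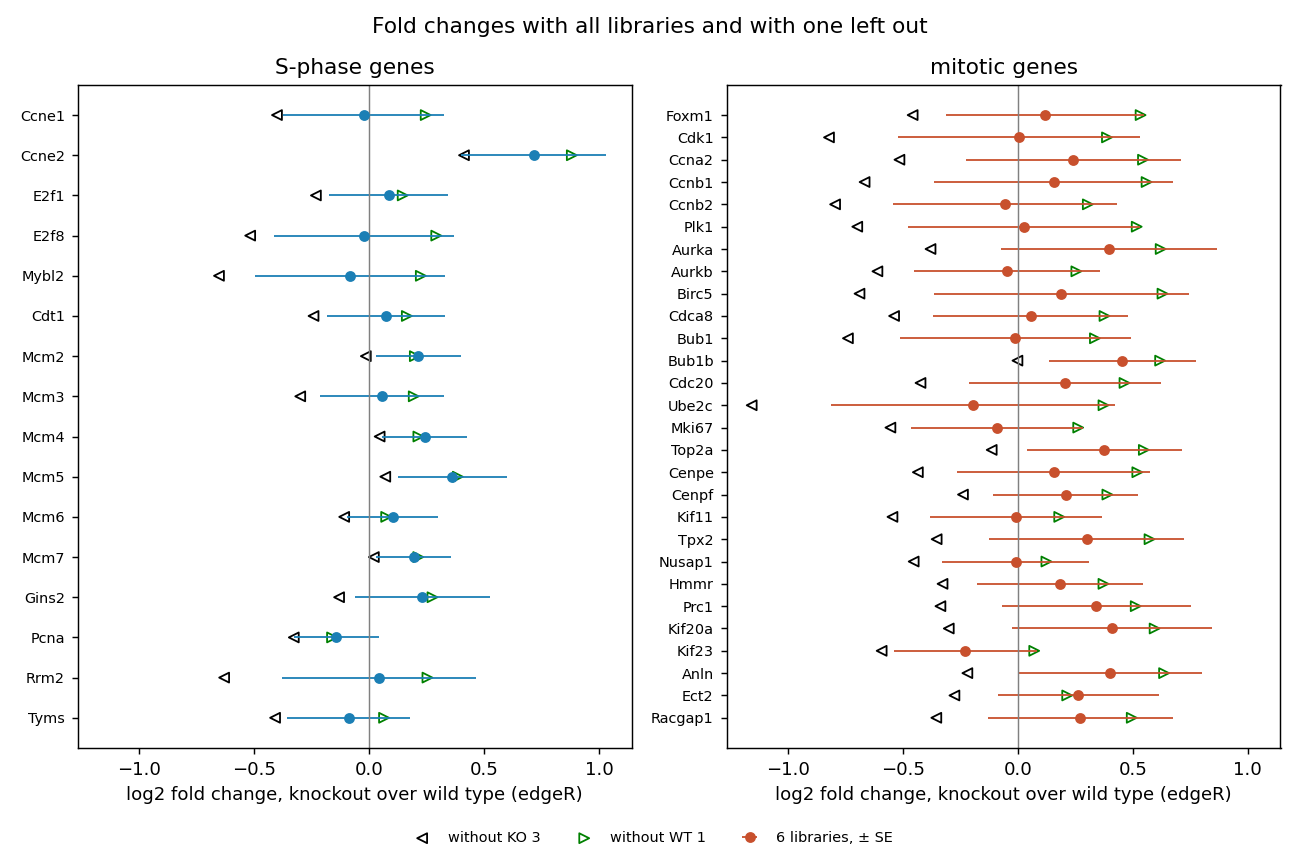
Log2 fold change (knockout over wild type, edgeR) of each S-phase gene and each mitotic gene, by role from top to bottom. Filled circles with bars are all 6 libraries ± SE; open triangles pointing left leave out knockout replicate 3 and those pointing right leave out wild-type replicate 1. All 28 mitotic triangles pointing left lie below 0 and all 28 pointing right lie above 0.

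Other genes of the same processes were also not called. Of 46 other S-phase genes, all tested, edgeR called 0, with 22 above 0 and a median of -0.022. An unadjusted p under 0.05 (edgeR) was seen for 0 of the 46, against 7.90% of all genes tested. The 3 with the smallest p, none passing, were the polymerase subunit gene Pola1 (0.50 ± 0.22), the maintenance DNA methyltransferase gene Dnmt1 (0.30 ± 0.15) and Rpa1, which coats single-stranded DNA (0.34 ± 0.18). Of 57 other mitotic genes edgeR called 0, with 40 above 0 and a median of 0.079. Only 1 of the 57 had an unadjusted p under 0.05 (edgeR), a smaller share than the 7.90% of all genes tested. That gene was Pttg1, securin, which restrains separase, at 52.2, 37.1 and 46.9 CPM in the wild type and 40.4, 32.3 and 28.4 CPM in the knockout (-0.43 ± 0.18, edgeR adjusted p = 0.627). Pttg1 was lowest in knockout replicate 3, the library in which 27 of the 28 mitotic genes described above were highest. The condensin gene Smc2 (0.40 ± 0.28) and the kinesin gene Kif20b (-0.29 ± 0.23) had the next smallest p, and Smc2 stood at 0.017 without knockout replicate 3. Wild-type replicate 1 and knockout replicate 3 were the highest of their groups for 50 of the 57 and 29 of the 46 genes, against 20.0% of all genes tested.

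Genes that act before S phase had wild-type replicate 1 and knockout replicate 3 highest of their groups for 6 of 13. For the CDK inhibitors this held for 2 of 7, against 20.0% of all genes tested. Knockout replicate 3 alone was the highest of its group for 6 of the 13 and for 6 of the 7, against 38.9%. Of 13 G1 cyclins, kinases, pocket proteins and E2F factors edgeR called 0, with 5 above 0 and a median of -0.015. An unadjusted p under 0.05 (edgeR) was seen for 2 of the 13, against 7.90% of all genes tested. E2f5, a repressor E2F that works with pocket proteins, was at 56.0, 51.7 and 59.9 CPM in the wild type and 46.3, 44.5 and 38.0 CPM in the knockout (-0.38 ± 0.13). Rbl2, the pocket protein p130 of quiescent cells, was at 45.0, 66.0 and 64.0 CPM and 82.7, 88.2 and 67.9 CPM (0.45 ± 0.18). The groups of both genes did not overlap, in opposite directions, and both had an edgeR adjusted p of 0.627. E2f6, another repressor, was the third by p (0.29 ± 0.13), also without overlap. In all, the knockout lay above the wild type without overlap for 2 of the 13 genes and below for 1. Over all genes tested the shares were 8.95% and 7.20%, and with so few genes these counts do not show a genotype difference. Of 7 CDK inhibitors 0 were called and 0 had an unadjusted p under 0.05 (edgeR), against 7.90% of all genes tested. Cdkn1c, p57, was at 63.7, 33.4 and 26.4 CPM in the wild type and 24.5, 21.4 and 33.0 CPM in the knockout (-0.65 ± 0.33; -0.19 without wild-type replicate 1), Cdkn1a, p21, was at 0.34 ± 0.21 (0.19 without knockout replicate 3), and Cdkn2b, p15, at 0.39 ± 0.25 (0.16 without it).

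Markers of several cell types were high or low in the same 2 libraries. All 8 endothelial markers were highest of their group in wild-type replicate 1 and in knockout replicate 3, with summed levels of 782, 417 and 414 CPM in wild-type replicates 1 to 3 and 369.6, 608 and 1037 CPM in knockout replicates 1 to 3. For fibroblast markers this held for 6 of 8, with sums of 2699.9, 1804 and 1248 CPM and 1761, 3414 and 5075 CPM. Over all genes tested it held for 20.0%. The order was opposite for 8 of 8 T lymphocyte markers, 6 of 8 proximal tubule markers and 4 of 8 collecting duct markers, which were lowest of their group in both libraries, where 20.6% of all genes tested and 0 of the 44 genes were. The proximal tubule sum was 1379, 1505 and 2847 CPM in the wild type and 2458, 1657 and 803 CPM in the knockout. T lymphocyte sums were 49.1, 65.5 and 67.2 CPM and 60.1, 70.8 and 29.6 CPM. Macrophage and monocyte markers summed to 1246 to 1344 CPM in the wild type and 1558 to 1863 CPM in the knockout, with 3 of 8 highest in both libraries. Injured tubule markers summed to 2384 to 3932 CPM and 3308 to 3568 CPM (2 of 8). B lymphocyte and plasma cell, neutrophil, erythroid, adipocyte and skeletal muscle lists had 0 of 8, 3 of 6, 1 of 8, 1 of 6 and 2 of 6 markers highest in both. No marker of any list was at 0 in all libraries. The part of these cell types in the levels of the cell cycle genes was not tested.

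**Figure D4:**
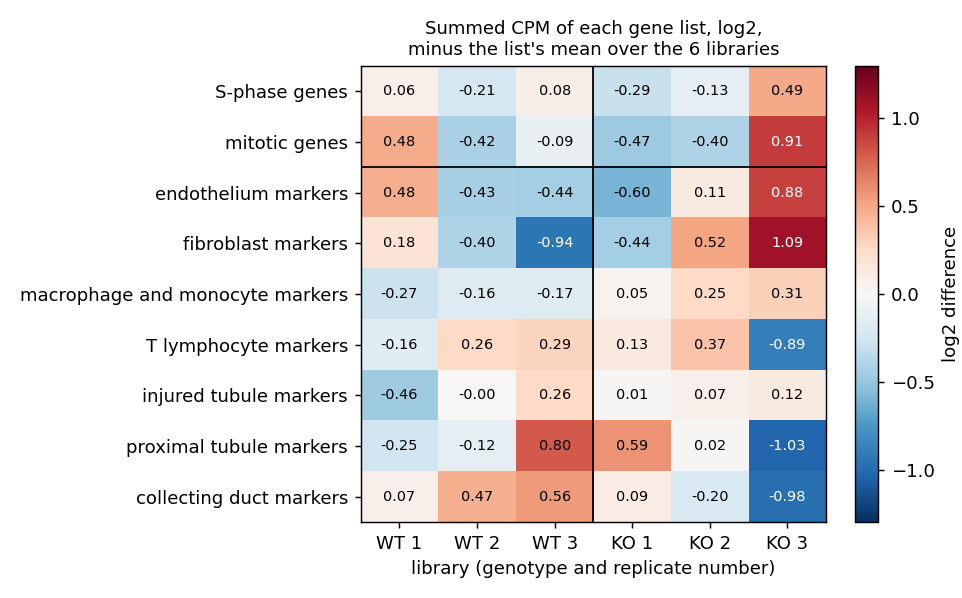
Log2 of the summed CPM of the S-phase genes, the mitotic genes and 7 lists of cell type markers (rows) in each library (columns; WT, wild type; KO, knockout), minus the mean of the row. Red is above and blue below the mean of the row; the mitotic genes and the endothelial markers are both highest in wild-type replicate 1 and knockout replicate 3 of their groups.

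Sites for the deleted microRNA were searched for in these genes, and the share with a site was near that over all genes. A microRNA pairs through its seed, mostly with 3′ UTRs, and the longest annotated 3′ UTR of each gene (GENCODE M21) was searched for GTGCAATA (8mer), GTGCAAT (7mer-m8) and TGCAATA (7mer-A1), which the 8mer contains, on the messenger strand only. All 44 genes had a 3′ UTR to search, and 4 held a site (9.09%), against 12.9% of 20185 genes of the table with an annotated 3′ UTR. None of the 4 was an 8mer. Ccne2 and Prc1 had a 7mer-m8 site and Ccnb1 and Ect2 a 7mer-A1 site, and their log2 fold changes were 0.72, 0.34, 0.16 and 0.26, none of which passed the test. Of all 44 genes, with or without a site, 31 were above 0, with a median of 0.14. Without knockout replicate 3, Prc1, Ccnb1 and Ect2 were below 0, at -0.34, -0.67 and -0.28, and Ccne2 was at 0.41. Whether a site goes with a higher fold change was not tested. A match of letters does not show that a site is used.

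Counting limits these values for some genes. Of the 44 genes, 14 overlap another gene that has a row in the table, among them Ccne2 (Ints8), Mcm7 (Ap4m1), Ccna2 (Exosc9), Aurka (Cstf1), Cdc20 (Elovl1) and Kif20a (Brd8 and Cdc23). Whether counting used strand is not given in the sources used here, so reads of such pairs may be shared.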

How the data were processed

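Bulk RNA sequencing counts from 3 wild-type and 3 Mir92b knockout ligated kidneys were analysed. The authors deposited raw read counts per gene symbol, unnormalized, per the labels. Builds GRCm38 and mm10, names of the same assembly, are in the submitters' processing notes; the aligner, counter and strand setting were not given in the sources used here. Columns were matched to samples by the names in the labels. No column belonged to another sample. The filter filterByExpr kept 18927 of 34714 rows (99.96% of counts). TMM factors scaled the counts to CPM. Genotypes were compared with edgeR 4.0.16 (estimateDisp, glmQLFit with robust = TRUE, quasi-likelihood F test, group as the only term) in R 4.3.3, with Benjamini-Hochberg adjustment over all genes and a threshold of 0.05. Standard errors were taken as the absolute log2 fold change over the square root of F. Within-group SDs used log2 CPM with 0.5 counts added. The pipeline was run on simulated counts with less spread than the data and no high libraries, so that run does not measure how the test performs here. Alternatives tried: scaling by library size only, by upper quartile or by DESeq2 size factors, DESeq2 1.42.0 (Wald), limma 3.58.1 (voom with quality weights), no filter, 1 CPM in 3 libraries, a transcript length offset, a replicate block and libraries left out. Between libraries, chi-square per degree of freedom was at least 31.5, so none copied another. Members, lists and tests were chosen with earlier results of these data known. All members are named; from each of 4 pathway lists, called genes and the 3 smallest p-values with a mean of at least 1 CPM are named. The seed site search was added after the counts were seen. Promoters and microRNAs come from RefSeq (GRCm38.p6), transcripts from GENCODE M21.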

Additional observations from a re-analysis of the deposited data

How the results depend on the processing

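No member was called under any setting, with a smallest adjusted p of 0.299 (limma-voom, Ccne2). Over all genes, 62 were called with the DESeq2 Wald test, 3 with limma-voom, 2 with no filter, 1 with replicate 3 of each genotype dropped and 0 to 1 with 1 library left out. The replicate block called 1 gene, not a member, with medians of 0.033 (S-phase) and 0.066 (mitotic). Samples of 1 number share only that number: correlations of their deviations were -0.25, 0.14 and -0.26 for replicates 1, 2 and 3. With 1 library left out the mitotic median ranged from -0.45 to 0.48 and the S-phase median from -0.24 to 0.24, lowest without knockout replicate 3. Dropping replicate 3 of each genotype gave -0.54 and -0.22, with 38 of 44 genes below 0. With limma-voom they were 0.063 and 0.041, and with other scaling 0.12 to 0.17 and 0.043 to 0.082. Fold changes changed sign for 27 of the 44 genes without knockout replicate 3, for 12 without wild-type replicate 1, for 24 without both, for 9 with limma-voom and for 0 to 2 with other scaling. Causes were not tested, and leaving libraries out shows only how far the fold changes depend on them. Counts per library were lowest for Ccne2.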
